A study of Mus musculus with 6 samples.

Results

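The Peg10 cluster is an imprinted domain near the start of mouse chromosome 6, and 9 of its genes are described here: Calcr, Tfpi2, Casd1, Sgce, Peg10, Ppp1r9a, Pon3, Pon2 and Asb4, in their order along the chromosome. They are 9 of the 53599 rows in the count tables, and 8 of them had enough counts to be among the 10503 rows tested. Peg10 was chosen by the difference in its level between the groups of these very tumours, so its difference is given as a description with no test. The other genes were listed for their place in the domain, with earlier results of these tumours known, so their tests and counts are not free of that choice. RNA was measured in 6 whole tumours grown from LG1233-OVA, a murine lung cancer line made to express ovalbumin. The cells of both groups are stable CRISPR lines, with 1000000 cells given subcutaneously to each female C57BL/6 mouse and tumours taken on day 27. In the sgUhrf1 group (3 tumours, genotype Uhrf1 knockout) the guide targets Uhrf1, and in the sgNT group (3 tumours, genotype WT) it is non-targeting. The labels do not say whether each line is 1 clone or a pool. The hosts carry an intact Uhrf1 gene, and a tumour sample holds cancer and host cells together, so fewer cells of a type and less RNA per cell cannot be told apart.

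Imprinted genes are expressed mainly from the copy inherited from 1 parent, a state held by DNA methylation at control regions that was set in egg or sperm. UHRF1 protein recognises newly copied DNA that carries methyl groups on a single strand and helps bring in the maintenance methyltransferase. In this domain the control region lies over the start of Peg10, where it is methylated on the maternal copy, and Peg10 and Sgce are read in opposite directions from it and expressed from the paternal copy. Several neighbours, among them Ppp1r9a, Pon2, Pon3, Asb4 and Tfpi2, have been described as favouring the maternal copy in some mouse tissues, chiefly the placenta. Counts of reads do not separate the parental copies, so all values below are sums over both.

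The row names of these tables belong to another genome build than the reads and are wrong for most genes, but not here. Of the names on chromosome 6 shared with the GENCODE annotation of GRCm38, 108 start at the same base, and they are all 108 names from the chromosome's beginning to base 10804828. All 9 cluster genes lie within that stretch, and each row has exactly the exons of its gene in GRCm38. Total counts ran from 5462555 to 6375069 in sgUhrf1 tumours and from 5560415 to 6356379 in sgNT tumours. The targeted gene does not check the labels: Uhrf1 stood at 121, 73.0 and 89.9 counts per 1000000 counts (CPM) in sgUhrf1 tumours and at 133, 136 and 98.2 CPM in sgNT tumours, with a log2 fold change of -0.37 ± 0.23 (standard error, SE) and an edgeR adjusted p of 0.227. Unlike the cluster genes, Uhrf1 was read from a row of 2305 bp that covers only 690 bp of its exons, so its whole transcript was not measured. Skeletal muscle genes varied between tumours of both groups: the 8 of 20 markers with a row summed to 495, 33.2 and 31.0 CPM in sgUhrf1 tumours and to 11.6, 579 and 7.62 CPM in sgNT tumours. Results are therefore also given, where it changes them, without sgUhrf1 replicate 1 and sgNT replicate 2.

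Promoter sequences from RefSeq (GRCm38.p6) were found for 7 of the 9 genes; Peg10 and Sgce had no entry. Each is 300 bases long, from 250 bases before to 50 bases after a transcription start. 4 are shown because they belong to the pair of neighbours with the lowest sgUhrf1 levels relative to sgNT among the tested ones with an entry, Ppp1r9a and Asb4, and to a pair whose levels did not pass the test, Pon2 and Tfpi2. Pon3 did not pass either and is not shown. Where a gene had several starts, the one with the most CpG sites is shown. Capitals mark each CpG, a C followed by a G on the same strand, the site that carries methylation in mammals.
Ppp1r9a (chr6:4903061-4903360, plus strand): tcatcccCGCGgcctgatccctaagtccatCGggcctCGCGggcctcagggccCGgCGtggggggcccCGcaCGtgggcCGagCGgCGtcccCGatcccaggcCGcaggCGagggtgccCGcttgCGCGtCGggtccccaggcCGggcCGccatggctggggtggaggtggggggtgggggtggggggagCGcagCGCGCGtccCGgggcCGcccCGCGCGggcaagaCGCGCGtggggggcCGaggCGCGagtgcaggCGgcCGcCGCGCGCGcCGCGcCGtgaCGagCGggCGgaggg
Asb4 (chr6:5390160-5390459, plus strand): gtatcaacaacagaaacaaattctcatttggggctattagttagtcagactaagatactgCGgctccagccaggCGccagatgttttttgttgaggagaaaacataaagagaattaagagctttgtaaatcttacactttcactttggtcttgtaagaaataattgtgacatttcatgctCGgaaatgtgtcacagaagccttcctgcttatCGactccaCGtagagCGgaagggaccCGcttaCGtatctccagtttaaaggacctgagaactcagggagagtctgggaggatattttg
Pon2 (chr6:5298291-5298590, minus strand): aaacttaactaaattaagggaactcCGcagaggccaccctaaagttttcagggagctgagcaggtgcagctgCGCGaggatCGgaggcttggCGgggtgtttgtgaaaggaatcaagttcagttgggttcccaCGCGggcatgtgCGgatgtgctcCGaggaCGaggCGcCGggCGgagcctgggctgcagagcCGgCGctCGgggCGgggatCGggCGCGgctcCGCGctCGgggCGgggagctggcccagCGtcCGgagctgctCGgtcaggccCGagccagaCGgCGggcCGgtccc
Tfpi2 (chr6:3968326-3968625, minus strand): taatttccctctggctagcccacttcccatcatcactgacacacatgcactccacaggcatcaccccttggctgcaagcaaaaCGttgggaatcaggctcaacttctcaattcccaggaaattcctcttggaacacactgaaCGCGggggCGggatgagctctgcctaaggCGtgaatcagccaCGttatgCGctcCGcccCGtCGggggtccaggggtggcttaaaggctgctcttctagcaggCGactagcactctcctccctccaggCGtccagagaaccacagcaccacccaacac

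The promoters differ in how many CpG sites they hold. That of Ppp1r9a has 48 CpG sites, a number reached by 1.22% of the 32851 mouse promoters in the same table, whose median is 7. The promoter of Asb4 has 8, a number reached by 48.6% of promoters. Pon2 has 31 (10.6% of promoters have as many) and Tfpi2 has 12 (39.6%). Other annotated starts of the same genes hold fewer: 10 CpG sites at another start of Ppp1r9a, 6 at another of Asb4 and 2 at each of the others of Tfpi2. The sequences shown are thus the highest of several starts for these genes, while the shares are over single promoters. Of the genes with an entry that are not shown, Pon3 has 7 CpG sites, a number reached by 52.1% of promoters. At their highest starts Casd1 has 23 (21.5%) and Calcr has 29 (12.9%). The letters say nothing of whether these sites were methylated in the tumours.

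Peg10 encodes a protein derived from the gag and pol genes of a retrotransposon, and the mouse placenta needs it. Its row (chromosome 6, 4747306 to 4760517, plus strand, 6667 bp of exon) held 32, 16 and 26 counts in sgUhrf1 tumours, against 883, 1116 and 1403 in sgNT tumours. As CPM these are 5.67, 2.54 and 5.72 in sgUhrf1 tumours, against 140, 165 and 249 in sgNT tumours. The groups lay far apart, and no sgUhrf1 tumour was without counts. The log2 fold change was -5.33 ± 0.37 (SE, n = 3 per group), or 40.1-fold lower, and it ran from -5.59 to -5.03 over 14 other settings and left-out tumours. Peg10 took at most 1.24% of the counts of the 9 genes in any sgUhrf1 tumour and at least 16.0% in any sgNT tumour.

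**Figure D1:**
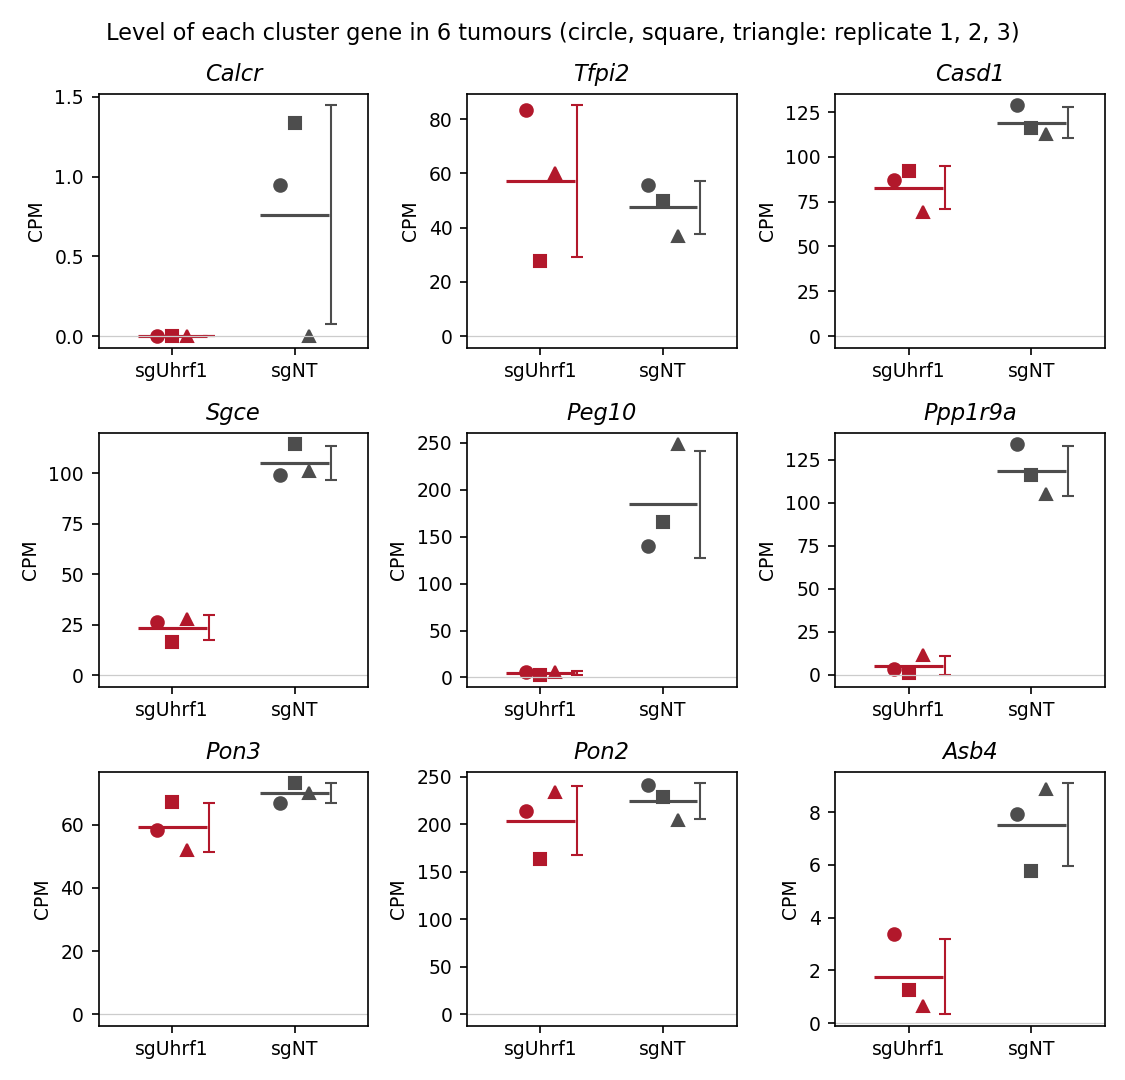
Level of each of the 9 cluster genes in CPM (vertical axis, from its own scale in each panel) in the 3 sgUhrf1 tumours (left) and the 3 sgNT tumours (right). Symbols are tumours, horizontal lines are means and bars are ± SD. The groups do not overlap for Casd1, Sgce, Peg10, Ppp1r9a and Asb4.

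Among the 7 other cluster genes tested, 4 fell in sgUhrf1 tumours, 0 rose and 3 did not pass the threshold (edgeR quasi-likelihood test, Benjamini-Hochberg adjusted p under 0.05 over all rows). Of all 10503 rows tested, 39.9% passed by the same rule, 19.7% lower and 20.2% higher. The median log2 fold change of the 7 was -0.52, against 0.019 over all rows. These 7 were listed with earlier results of these tumours known, so this count, this median and the refits below are not independent evidence. Beside Peg10, the genes without overlap between groups were Sgce, Ppp1r9a, Asb4 and Casd1; among all rows tested, ranges did not overlap for 54.4%, and for 27.8% they did not overlap with sgUhrf1 lower.

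Sgce, which encodes epsilon-sarcoglycan, a membrane protein whose loss of the paternal copy causes a movement disorder in humans, is the divergent partner of Peg10. Its row (4674350 to 4747207, minus strand) ends 98 bp before that of Peg10 begins, so the rows do not overlap. It held 149, 103 and 127 counts in sgUhrf1 tumours, against 626, 772 and 571 in sgNT tumours, or 26.4, 16.3 and 27.9 CPM against 99.1, 114 and 101 CPM. Every sgNT tumour was far above the highest sgUhrf1 tumour. Sgce fell by 2.16 ± 0.24 on the log2 scale (SE over 3 tumours a group, edgeR adjusted p = 0.000329), and the call held in all 14 refits. Within each library, the count per kb of Peg10 was 0.342, 0.247 and 0.326 times that of Sgce in sgUhrf1 tumours, and 2.25, 2.30 and 3.91 times in sgNT tumours. Peg10 was thus the less counted of the pair per length in all sgUhrf1 tumours and the more counted in all sgNT tumours, a ratio that needs no scaling between libraries but rests on the gene chosen for its difference.

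Ppp1r9a encodes neurabin, a scaffold known from neurons that binds actin and a protein phosphatase. Its row (4902917 to 5165661, plus strand), whose start lies 156 kb past that of Peg10, held 19, 6 and 52 counts in sgUhrf1 tumours, against 848, 785 and 595 in sgNT tumours. These are 3.36, 0.952 and 11.4 CPM in sgUhrf1 tumours, against 134, 116 and 105 CPM in sgNT tumours. The sgNT tumours were close together, while the sgUhrf1 tumours ranged widely, with replicate 3 highest. Ppp1r9a fell by 4.55 ± 0.63 on the log2 scale (SE over 3 tumours a group; edgeR adjusted p = 0.000913), and without sgUhrf1 replicate 3 the log2 fold change was -5.80. Relative to Pon2 in the same library, its count per kb was 0.00794, 0.00294 and 0.0247 in sgUhrf1 tumours and 0.281, 0.258 and 0.261 in sgNT tumours. A pair of noncoding RNA rows inside the Ppp1r9a gene, looked at after their values were seen and too low to be tested, held few counts: Gm26736 had 2, 0 and 7 in sgUhrf1 tumours and 12, 7 and 15 in sgNT tumours, and Gm26814 had 0, 0 and 2 in sgUhrf1 tumours and 12, 4 and 5 in sgNT tumours. The 3 of 8 neuronal markers with a row, Map2, Rims2 and Nalcn, summed to 4.29 to 9.56 CPM in sgUhrf1 tumours and to 20.4 to 47.9 CPM in sgNT tumours. Rims2 and Nalcn were known to be low in the sgUhrf1 tumours when that list was made, so their direction is no evidence, none of the 3 is at 0 in the sgNT group, and their part in the result for Ppp1r9a was not tested.

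Asb4 encodes a subunit of a ubiquitin ligase that is known from blood vessels, placenta and hypothalamus. Its row (5383386 to 5433022, plus strand) held 19, 8 and 3 counts in sgUhrf1 tumours, against 50, 39 and 50 in sgNT tumours. At 3.36, 1.27 and 0.660 CPM in sgUhrf1 tumours and 7.92, 5.78 and 8.86 CPM in sgNT tumours it had the lowest mean of the tested cluster genes in either group, and the groups did not overlap. Asb4 fell by 2.06 ± 0.56 on the log2 scale (SE over 3 tumours a group; edgeR adjusted p = 0.0185). The call was lost without sgNT replicate 3 (-1.93, adjusted p = 0.0652) or sgUhrf1 replicate 2 (-1.86, adjusted p = 0.0537), and the value was -2.90 without sgUhrf1 replicate 1.

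Casd1, the gene of an enzyme that adds acetyl groups to sialic acids, lies on the other side of Sgce (4600839 to 4643355, plus strand). It stood at 86.9, 92.2 and 69.3 CPM in sgUhrf1 tumours, against 129, 116 and 113 CPM in sgNT tumours. The groups did not overlap, but the difference was small. Casd1 fell by 0.52 ± 0.18 on the log2 scale (SE over 3 tumours a group, edgeR adjusted p = 0.0426). Its log2 fold change ran from -0.67 to -0.41 over 14 refits. The call was lost in 9 of these, with adjusted p-values from 0.0619 to 0.189 in those 9. They were DESeq2 (0.0619), no filter (0.0632), the replicate block (0.0725), the fit without both muscle-rich tumours (0.189) and those leaving out any single tumour but sgUhrf1 replicate 2; over all 14 refits the adjusted p ran from 0.0396.

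The paraoxonase genes Pon3 and Pon2, whose enzymes break down lactones, lie between Ppp1r9a and Asb4. Pon3 (5220852 to 5256286, minus strand) stood at 58.4, 67.3 and 51.9 CPM in sgUhrf1 tumours and at 67.0, 73.2 and 70.2 CPM in sgNT tumours. Pon2 (5264147 to 5298455, minus strand) stood at 214, 164 and 234 CPM in sgUhrf1 tumours and at 241, 228 and 204 CPM in sgNT tumours. For both, the groups overlapped. Their log2 fold changes were -0.24 ± 0.18 (adjusted p = 0.311) and -0.14 ± 0.18 (adjusted p = 0.575) in edgeR. The noncoding gene Gm44424 shares exon sequence with Pon2 on the other strand, and the counting did not use strand, so its reads cannot be told from those of Pon2 there. The remaining paraoxonase gene, Pon1, had 0, 0 and 4 counts in sgUhrf1 tumours and 1, 0 and 1 in sgNT tumours.

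Tfpi2 and Calcr lie farthest before Peg10. Tfpi2, the gene of a secreted inhibitor of serine proteases of the matrix (3962595 to 3988919, minus strand), stood at 83.6, 27.6 and 60.3 CPM in sgUhrf1 tumours and at 55.7, 49.8 and 36.9 CPM in sgNT tumours. The sgUhrf1 tumours spanned the whole sgNT range, and the log2 fold change of 0.27 ± 0.36 (edgeR adjusted p = 0.590) turned to -0.13 without sgUhrf1 replicate 1. Calcr, the calcitonin receptor gene (3685680 to 3764714, minus strand), had 0, 0 and 0 counts in sgUhrf1 tumours and 6, 9 and 0 in sgNT tumours. It was too low to be tested. With 3 counts put over the whole sgUhrf1 group, the limit that a count of 0 allows, the lower bound for the fall of Calcr was 4.41-fold. This value covers counting error of the sgUhrf1 group only and takes the sgNT counts as exact, and 1 sgNT tumour also had 0 counts.

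**Figure D2:**
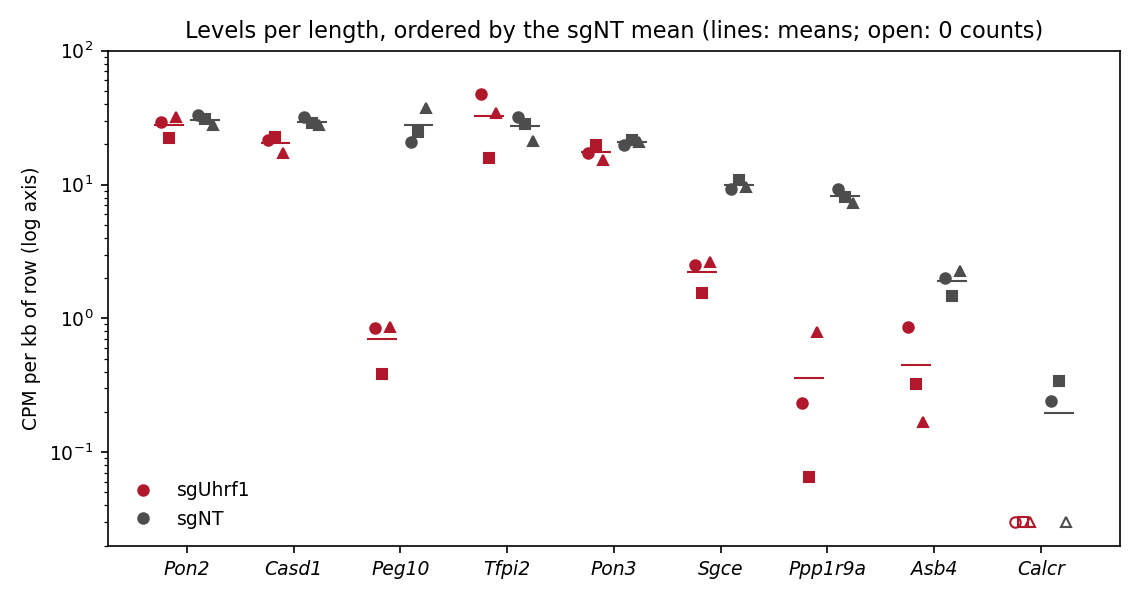
Level of each cluster gene in CPM per kb of its exons (vertical log axis) in sgUhrf1 tumours (left of each pair) and sgNT tumours (right). Symbols are tumours (circle, square and triangle for replicates 1, 2 and 3), lines are means, and open symbols at the bottom are tumours with 0 counts. Peg10, which was chosen by its difference, stands with Pon2, Casd1 and Tfpi2 in sgNT tumours and near Asb4 and Ppp1r9a in sgUhrf1 tumours.

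Set per length, so that genes can be compared, the order of levels differed between the groups. In sgUhrf1 tumours the means in CPM per kb of row were 32.7 for Tfpi2, 27.8 for Pon2, 20.5 for Casd1 and 17.5 for Pon3, and neighbours in this order overlapped in range. Then came Sgce at 2.22 ± 0.592 (SD, n = 3), Peg10 at 0.696 ± 0.273, Asb4 at 0.449 ± 0.361, Ppp1r9a at 0.361 ± 0.378 and Calcr at 0. Peg10 and Asb4 overlapped in range, as did Asb4 and Ppp1r9a. In sgNT tumours the means in CPM per kb were 30.6 for Pon2, 29.5 for Casd1, 27.7 ± 8.53 (SD, n = 3) for Peg10, 27.2 for Tfpi2 and 20.7 for Pon3, and each of these overlapped with the next. Below them, with no overlap between neighbours, stood Sgce at 9.89 ± 0.783, Ppp1r9a at 8.17 ± 1.00, Asb4 at 1.91 ± 0.401 and Calcr at 0.195 ± 0.176. The group of genes that ranked lowest in sgUhrf1 tumours thus took in Peg10, which stood among the highest 5 in sgNT tumours. That shift rests on the gene chosen for its difference. Beside it, the order of means changed only for Tfpi2 against Pon2 and Casd1 and for Asb4 against Ppp1r9a. In sgUhrf1 tumours those genes overlapped in range.

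**Figure D3:**
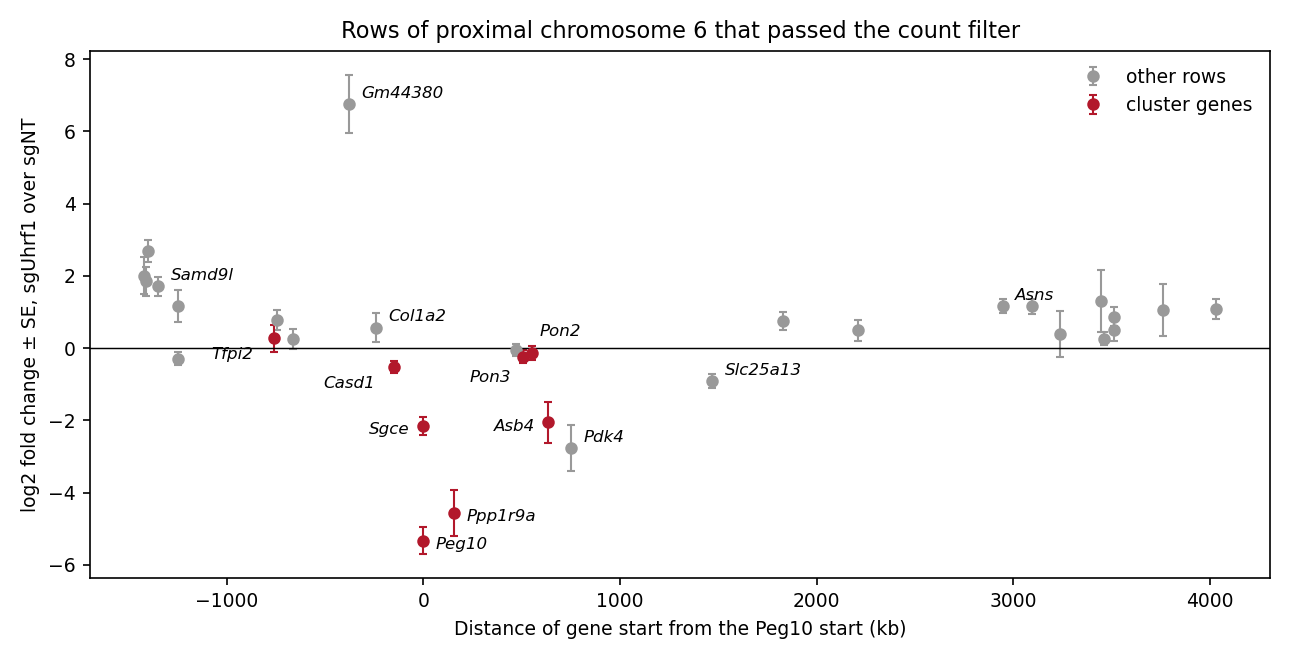
Log2 fold change ± SE (sgUhrf1 over sgNT, vertical axis) of the 32 rows on proximal chromosome 6 that passed the count filter against the distance of each gene's start from that of Peg10 (kb, horizontal axis). Cluster genes are red and other rows grey. The lowest values are those of Peg10, which was chosen by this difference and carries no test, and Ppp1r9a.

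A list of 17 other genes covered the surroundings, some of them between cluster genes (Gngt1, Gng11, Bet1, Col1a2 and Pon1) and the rest on either side. Of its 11 tested members 3 rose, 2 fell and 6 did not pass, with a median log2 fold change of 0.57, where 39.9% of all rows passed. Both that fell follow Asb4 along the chromosome. Pdk4, a kinase gene that holds back glucose oxidation in fasting and is active in muscle, had 38.2, 4.29 and 11.0 CPM in sgUhrf1 tumours, against 97.4, 165 and 101 CPM in sgNT tumours. The tumours of each group with the most muscle reads, sgUhrf1 replicate 1 and sgNT replicate 2, were also the highest for Pdk4, and the part of muscle was not tested. Pdk4 fell by 2.76 ± 0.64 on the log2 scale (edgeR adjusted p = 0.00888), the value was -4.02 without sgUhrf1 replicate 1, and without both of these tumours it was -3.72 (adjusted p = 0.00187). Slc25a13, a mitochondrial carrier gene, stood at 39.8 ± 4.55 CPM in sgUhrf1 tumours and 74.8 ± 6.35 CPM in sgNT tumours (SD, n = 3 each). It fell by 0.91 ± 0.19 (edgeR adjusted p = 0.00514). Without both muscle-rich tumours its log2 fold change was -0.92 and the edgeR adjusted p was 0.0691.

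3 genes of the list rose. Samd9l, an interferon-induced gene at -1348 kb from the start of Peg10, rose by 1.71 ± 0.26 on the log2 scale (SE over 3 tumours a group; edgeR adjusted p = 0.00130), and Asns, the asparagine synthetase gene at 2946 kb, rose by 1.17 ± 0.20 (adjusted p = 0.00223). Sem1, the gene of a small proteasome subunit, rose by 0.75 ± 0.26 (edgeR adjusted p = 0.0431). Its log2 fold change ran from 0.45 to 0.81 in the 6 refits where this call was lost. These were scaling by library totals (adjusted p = 0.0800), the replicate block (0.0709), the fit without both muscle-rich tumours (0.140) and those leaving out sgUhrf1 replicate 3 (0.119), sgNT replicate 2 (0.151) or sgNT replicate 3 (0.147). The 6 that did not pass were Hepacam2 at 1.16, Gng11 at 0.77, Col1a2 at 0.57, Sdhaf3 at 0.50, Bet1 at 0.25 and Vps50 at -0.29 on the log2 scale. Gng11, a G protein subunit gene, had an adjusted p of 0.0510 and passed without sgNT replicate 1 (1.11, adjusted p = 0.0101) and in 6 other refits, and Col1a2, a collagen gene next to Casd1, had 10888 ± 5073 CPM in sgUhrf1 tumours and 7339 ± 1834 CPM in sgNT tumours (SD, n = 3 each). Col1a2 passed only when sgUhrf1 replicate 2 was left out (0.89, adjusted p = 0.0442), and Hepacam2 only with a minimum count of 30 (adjusted p = 0.0474). Gngt1, Dlx6 and Dlx5 had 0 counts in all tumours.

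On all of proximal chromosome 6, up to the last base where the builds match, 32 of 113 rows passed the count filter, Peg10 included. Beside Peg10, 6 were called lower and 10 higher, where 19.7% of all rows tested were lower and 20.2% higher. The median log2 fold change of the 32 was 0.50. The 6 called lower were Casd1, Sgce, Ppp1r9a, Asb4, Pdk4 and Slc25a13. Pon3, Pon2 and the noncoding row Gm44250 beside them, which lie among these genes, did not pass. Gm44380, a noncoding row between Bet1 and Col1a2 that was singled out after its values were seen, had 110, 34 and 76 counts in sgUhrf1 tumours and 1, 1 and 0 in sgNT tumours, a log2 fold change of 6.76 ± 0.81.

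**Figure D4:**
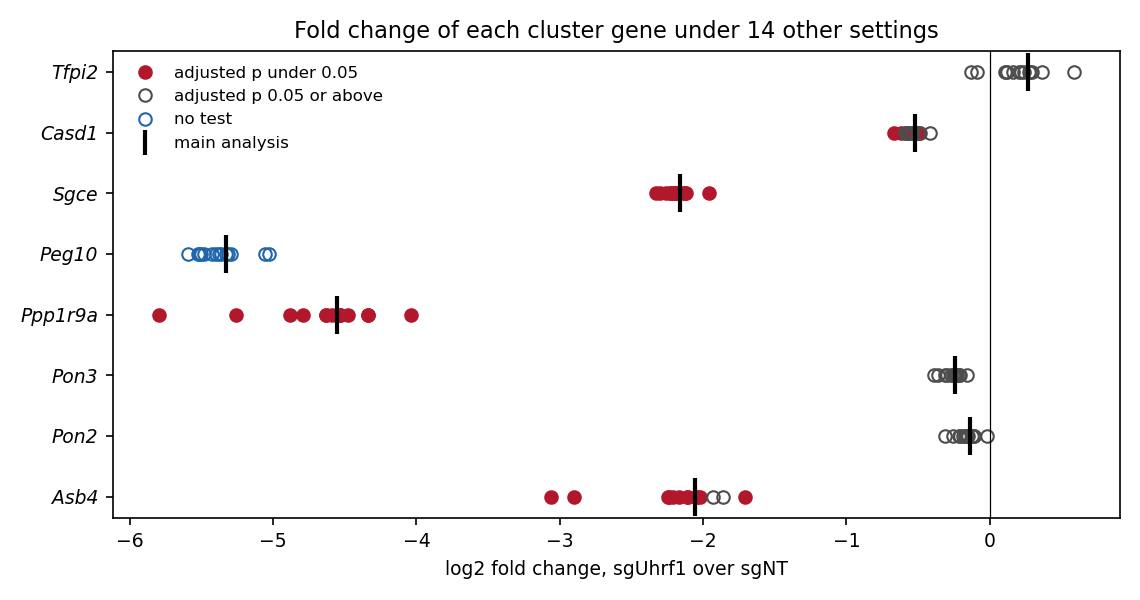
Log2 fold change (sgUhrf1 over sgNT, horizontal axis) of 8 cluster genes in the main analysis (black bar) and in 14 other settings (circles), filled where the adjusted p was under 0.05. Sgce and Ppp1r9a were called in all 14, Asb4 in 12 and Casd1 in 5; blue circles for Peg10 carry no test.

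Genes on other chromosomes share features of the cluster and were counted from lists, with rows named by the GRCm38 exons at the row's position. Of 58 imprinted genes outside proximal chromosome 6, 21 had a row named in this way and 15 were tested. Of these 4 rose, 3 fell and 8 did not pass, with a median log2 fold change of 0.26. This share is near that of all rows, of which 20.2% were higher and 19.7% lower. The largest differences were in Kcnq1, a potassium channel gene, which rose by 3.49 ± 0.39, in the maternally expressed noncoding RNA gene Meg3, which rose by 2.67 ± 0.60, in Xlr4b, which rose by 2.62 ± 0.51, and in the growth factor receptor gene Igf2r, which fell by 2.44 ± 0.27 (SE, n = 3 per group, edgeR adjusted p from 0.000316 to 0.00770). Their rows, in the order Kcnq1, Meg3, Xlr4b and Igf2r, cover 295, 3429, 835 and 268 bp of exon. The rows themselves are 2833, 6358, 1214 and 1023 bp long. Without both muscle-rich tumours 1 rose and 1 fell. In that fit the log2 fold change was 2.35 for Meg3 (edgeR adjusted p = 0.0672) and 2.33 for Xlr4b (edgeR adjusted p = 0.0659). Of 22 genes that, like Peg10, derive from retrotransposon gag genes, 6 had a row and 1 was tested: Arc, a neuronal gene whose protein forms capsids, stood at 2.72 ± 1.85 CPM in sgUhrf1 tumours and 9.93 ± 7.17 CPM in sgNT tumours (SD, n = 3 each). Arc fell by 1.89 ± 0.64 (edgeR adjusted p = 0.0423), with overlapping ranges, and the call was lost in 6 of 13 refits, among them those without sgUhrf1 replicate 1, sgUhrf1 replicate 2, sgNT replicate 2 or sgNT replicate 3.

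Levels over the 6 tumours were compared with those of Peg10 by Pearson correlation of log2 CPM, for 4210 genes with a row named by position. Among the genes that most resembled Peg10 were Wdr43 (r = 0.998), Stip1 (0.998), Pdk3 (0.997) and Rhobtb3 (0.996). Their log2 fold changes were -0.75 ± 0.18 for Wdr43, -1.33 ± 0.17 for Stip1, -0.86 ± 0.31 for Pdk3 and -3.57 ± 0.42 for Rhobtb3. The groups form separate clusters of tumours, so that r is high for any gene with a steady difference: it was above 0.9 for 702 of the 4210 genes, or 16.7%. Sgce came 25th at 0.990 and Ppp1r9a 237th at 0.961, while Asb4, Casd1 and Pon3 had 0.879, 0.822 and 0.659 and Tfpi2 had -0.057. The rows of Wdr43, Stip1, Pdk3 and Rhobtb3 cover only 293, 127, 72 and 97 bp of exon. Genes ranked by likeness to Peg10 are ones that differ between the groups, so no test is given for them.

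Markers of other cell types differed between the tumours beside these results. For the counts of called markers below, 20.2% of all rows tested were higher and 19.7% lower. Epithelial markers, 3 of 8 with a row, summed to 1681 to 2811 CPM in sgUhrf1 tumours and to 155 to 436 CPM in sgNT tumours, and the 2 tested rose. These are Cdh1 and Krt7, both detected in all 6 tumours. Leukocyte markers, 3 of 10 with a row, summed to 90.2 to 163 CPM in sgUhrf1 tumours and to 19.1 to 38.5 CPM in sgNT tumours, and 2 of 3 tested rose. Lck stood at 31.9 to 93.0 CPM in sgUhrf1 tumours and at 1.78 to 11.3 CPM in sgNT tumours. Itgax stood at 50.6 to 83.2 CPM in sgUhrf1 tumours and at 10.2 to 17.9 CPM in sgNT tumours. Ptprc overlapped between the groups, at 7.62 to 13.1 CPM in sgUhrf1 tumours and at 7.12 to 11.9 CPM in sgNT tumours. The rows of Lck, Itgax and Ptprc cover only 204, 810 and 252 bp of exon. Of 6 fibroblast markers tested 1 rose and 1 fell. Most of their sum was Col1a2, while Pdgfra stood at 1.90 to 8.32 CPM in sgUhrf1 tumours and at 14.4 to 24.2 CPM in sgNT tumours, and Pdgfrb at 2.38 to 8.14 CPM in sgUhrf1 tumours and at 9.50 to 15.1 CPM in sgNT tumours. Thy1 went the other way, at 292 to 525 CPM in sgUhrf1 tumours and at 235 to 261 CPM in sgNT tumours. The ranges of Col1a2, Dcn, Postn and Fap overlapped between the groups. Fibroblast markers (7 of 10, 5942 to 16264 CPM in sgUhrf1 and 5998 to 9904 CPM in sgNT tumours) and endothelial markers (5 of 7, 57.8 to 104 CPM in sgUhrf1 and 44.8 to 99.2 CPM in sgNT tumours) overlapped in their sums, and 0 of 4 endothelial markers tested passed. No marker with a row was at 0 in all 6 tumours. Of the 5 muscle satellite cell markers, cells known to express Calcr, 1 had a row, and it summed to at most 1.10 CPM in sgUhrf1 tumours and 1.63 CPM in sgNT tumours. The part of these cell types in the cluster's differences was not tested.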

How the data were processed

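The deposited unit is the count: whole read pairs per row, not normalized, with a table for each tumour. The submitters' processing notes name fastp, STAR and featureCounts and the genome build GRCm38; per the file headers, featureCounts was version 2.0.1, run on read pairs over exons grouped by gene name, without strand, with the GENCODE M26 annotation, which has coordinates of the next build. No version of fastp or STAR is given there. Of 50114 row names shared with GENCODE M21 (GRCm38), 1456 (2.91%) start at the same base; the cluster's rows are among them. Rows elsewhere were named by position: they had to cover 50 bp or more of the exons of just 1 gene of M21 (small RNA genes not counted), and the row with most counts was taken where several named 1 gene (13417 rows, 46.1% of counts).

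The test was edgeR's quasi-likelihood F test (edgeR 4.0.16, R 4.3.3; TMM scaling, default filterByExpr with a minimum count of 10 and total of 15, Benjamini-Hochberg adjustment over 10503 rows, threshold 0.05). SEs are the size of the log2 fold change divided by the square root of that F statistic. CPM are counts per 1000000 TMM-scaled counts. A floor of 3 counts equals 0.445 to 0.660 CPM per tumour. The same tests were run with DESeq2 1.42.0, limma-voom in limma 3.58.1, other scalings and filters, a replicate block and left-out tumours. The labels call the replicates biological and name no separate cultures, so p-values measure the spread between these tumours. The members and gene lists were chosen with earlier results of these data known. The rule for named genes takes all 9 cluster genes, every tested surrounding gene, up to 4 genes past the threshold per other list, and the 5 genes most like Peg10 whose log2 CPM averaged 1 or more (predicted genes, Rik clones and pseudogenes set aside), 1 of which is not reported here.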

Additional observations from a re-analysis of the deposited data

How the results depend on the processing

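The fold change of Peg10 kept its direction in all 14 refits, as did those of Sgce, Ppp1r9a, Asb4, Casd1, Pon3 and Pon2; Sgce and Ppp1r9a also kept their calls. With single tumours left out, 2 to 3 cluster genes beside Peg10 were lower and 0 higher each time, the 2 being without sgNT replicate 3. Scaling by library totals alone shifted the median log2 fold change of all rows by -0.16, and no call of a cluster gene changed with it. The replicate numbers do not pair the tumours (same-numbered tumours had correlations of deviations of -0.079, -0.021 and 0.050); with the replicate block 1838 rows were higher and 1807 lower, and 3 cluster genes beside Peg10 were lower.

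Over all rows, leaving out single tumours gave 1431 to 2020 higher and 1259 to 1908 lower, the lowest of both without sgNT replicate 2; without both muscle-rich tumours 1094 were higher and 771 lower. The 17 surrounding genes numbered 2 to 4 higher and 2 lower with single tumours left out, 5 higher with a minimum count of 30, and 1 lower without the muscle-rich tumours. Imprinted genes elsewhere numbered 3 to 5 higher and 1 to 4 lower with single tumours left out, and 1 higher and 1 lower without the muscle-rich tumours. With at least 200 bp of exon overlap 4 were higher and 1 lower, and among rows with their own name 1 was higher and 0 lower. Of the gag-derived genes 0 to 1 were lower with single tumours left out. The count was 0 of 1 without the muscle-rich tumours and in limma-voom; with a minimum count of 30 and among rows with their own name none was tested, so 0 is no loss of a call. With no filter 1 was higher. The causes were not tested.

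Reversals were in uncalled genes. With single tumours left out, log2 fold changes ran from -0.13 to 0.59 for Tfpi2, from -0.039 to 0.50 for Bet1, from -0.57 to 0.70 for H19, from -0.60 to 0.20 for Kcnq1ot1 and from -0.37 to 0.83 for Dcn. The reversals were without sgUhrf1 replicate 1 for Tfpi2, H19 (-0.57) and Kcnq1ot1 (0.029), without sgUhrf1 replicate 3 for Bet1 and Dcn, without sgNT replicate 1 for H19 (-0.041) and Kcnq1ot1 (0.20), and without sgNT replicate 3 for H19 (-0.023). Without both muscle-rich tumours they were Tfpi2 (-0.088) and H19 (-0.032). Calcr was too low to test.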
